A study of Mus musculus with 46 samples.

Results

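Satellite repeats are short units of DNA repeated in tandem. Satellite loci with signal were examined in total RNA of B16F10 mouse melanoma cells with and without a guide against Arid1a. Members are loci of the class Satellite in the deposited table of single repeat loci, chosen by their measured level: the log2 values of the 4 total RNA libraries had to average 2 or more. This rule kept 1146 of the 36869 satellite loci in the table, beside 103654 of 5147736 repeat loci of every class. The 4 libraries came from untreated B16F10 cells, 2 with the genotype sgScramble (a non-targeting control guide) and 2 with the genotype sgArid1a. ARID1A is the DNA-binding subunit of the BAF chromatin remodelling complex. Untreated polyA libraries of the same line, with the genotypes sgScramble, sgArid1a, sgArid1a/sgCgas and sgArid1a/sgSting and 2 libraries each, were used for the genes that hold satellite loci; for the double-guide libraries the labels give the cell line as B16F11 to B16F14. The labels do not say whether cells were a clone or a pool, nor whether replicates came from separate cultures, so p-values measure the spread between these libraries, which may be technical. Since the level chose the members, the levels are a description and were not tested.

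The mouse has 2 well-known satellites. The major satellite (GSAT_MM in the repeat annotation) fills the pericentromeric heterochromatin of most chromosomes, where SUV39H enzymes methylate histone H3 on lysine 9 and HP1 proteins bind. The minor satellite, taken here as SYNREP_MM, lies at the centromere itself, where CENP-B binds it and CENP-A replaces histone H3. Both are normally kept at low transcription, and both are known to be transcribed more when heterochromatin is lost or cells are stressed. The genome assembly holds only fragments of these arrays. How reads from copies outside the assembly were counted is not given in the sources used here.

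Some stretches that the reference transcripts cover show what the loci are (GRCm38, read 5′ to 3′ on the strand of the repeat). The first 2 are major satellite copies from different chromosomes, with the longest run identical in both, 46 bases, in capitals. The third is the only minor satellite stretch covered by a transcript, with in capitals the 32 bases that also belong to the neighbouring major satellite locus. The last 2 are MMSAT4 coding stretches, from the locus with the highest level and from the stretch with the most copies of GGAGAGAAACCCTA, the run of 14 bases found in the most MMSAT4 stretches, in capitals. The major satellite stretches (chr14:19417133-19417366, plus strand, and chr2:98662237-98662500, minus strand) lie opposite the annotated coding sequences of Gm21738 and Gm10801, whose genes run on the other strand. The minor satellite stretch (chr2:98662469-98662522, minus strand) also lies opposite Gm10801 coding sequence. The MMSAT4 windows are coding sequence, read in the direction of the gene, of Zfp386 (chr12:116059800-116060051, plus strand) and Gm14412 (chr2:177315541-177315792, minus strand).
GSAT_MM, Gm21738: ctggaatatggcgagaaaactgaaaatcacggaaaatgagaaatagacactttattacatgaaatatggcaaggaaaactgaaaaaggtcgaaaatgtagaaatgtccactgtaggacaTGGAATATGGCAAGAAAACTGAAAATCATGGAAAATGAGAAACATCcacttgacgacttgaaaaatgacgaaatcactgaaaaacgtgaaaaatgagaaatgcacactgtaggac
GSAT_MM, Gm10801: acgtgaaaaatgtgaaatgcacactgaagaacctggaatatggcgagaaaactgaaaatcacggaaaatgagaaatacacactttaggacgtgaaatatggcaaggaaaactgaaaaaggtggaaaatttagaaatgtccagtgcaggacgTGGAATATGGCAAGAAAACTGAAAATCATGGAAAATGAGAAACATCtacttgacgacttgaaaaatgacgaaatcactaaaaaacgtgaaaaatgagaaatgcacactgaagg
SYNREP_MM, Gm10801: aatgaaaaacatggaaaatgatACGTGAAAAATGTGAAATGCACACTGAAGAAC
MMSAT4, Zfp386: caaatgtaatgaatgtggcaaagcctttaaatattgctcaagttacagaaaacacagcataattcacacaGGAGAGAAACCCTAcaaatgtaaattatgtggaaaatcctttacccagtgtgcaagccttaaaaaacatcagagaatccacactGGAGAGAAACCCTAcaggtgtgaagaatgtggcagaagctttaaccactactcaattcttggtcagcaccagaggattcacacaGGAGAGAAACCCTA
MMSAT4, Gm14412: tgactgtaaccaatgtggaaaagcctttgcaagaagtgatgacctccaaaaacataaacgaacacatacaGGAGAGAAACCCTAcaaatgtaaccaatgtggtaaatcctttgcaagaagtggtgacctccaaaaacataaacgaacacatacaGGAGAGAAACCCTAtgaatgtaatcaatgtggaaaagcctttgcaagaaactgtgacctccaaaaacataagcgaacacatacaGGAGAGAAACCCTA

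The capitals show how a short read can belong to more than 1 locus. Read length was not examined here, so how many reads fit inside these bases is not known. A read inside the 46 identical bases matches chromosome 14 and chromosome 2 equally, and a read inside the 32 shared bases lies in a major and a minor satellite locus at once. How the authors treated reads with several matches is not given in the sources used here, so the values of the major and minor satellite loci are uncertain as values of single loci. In the longest major satellite stretch of a transcript, 586 bases of the long non-coding RNA Gm26870 on chromosome 9, the sequence matched itself best when shifted by 234 bases, with 92.9% of bases identical. MMSAT4 had another period. Of 202 MMSAT4 stretches of at least 400 bases, 201 matched themselves best at a shift of 84 bases or 2 or 3 times that, with a median identity of 75.1% at 84 bases. A unit of 84 bases is 28 codons, the usual length of 1 C2H2 zinc finger with its linker, and in the printed reading GGAGAGAAACCCTA holds the codons for Gly-Glu-Lys-Pro of that linker. The run was chosen on these stretches. It was found in 229 of 656 MMSAT4 stretches (34.9%), 536 times on the strand of the repeat and 0 times on the other strand. Of the 360 MMSAT4 stretches no longer than 300 bases, 25.6% held it, against 0.0183% of 32851 RefSeq promoter windows of 300 bases (GRCm38.p6, both strands). It was not in the 5 GSAT_MM, 21 IMPB_01, 1 SYNREP_MM and 15 ZP3AR stretches.

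**Figure D1:**
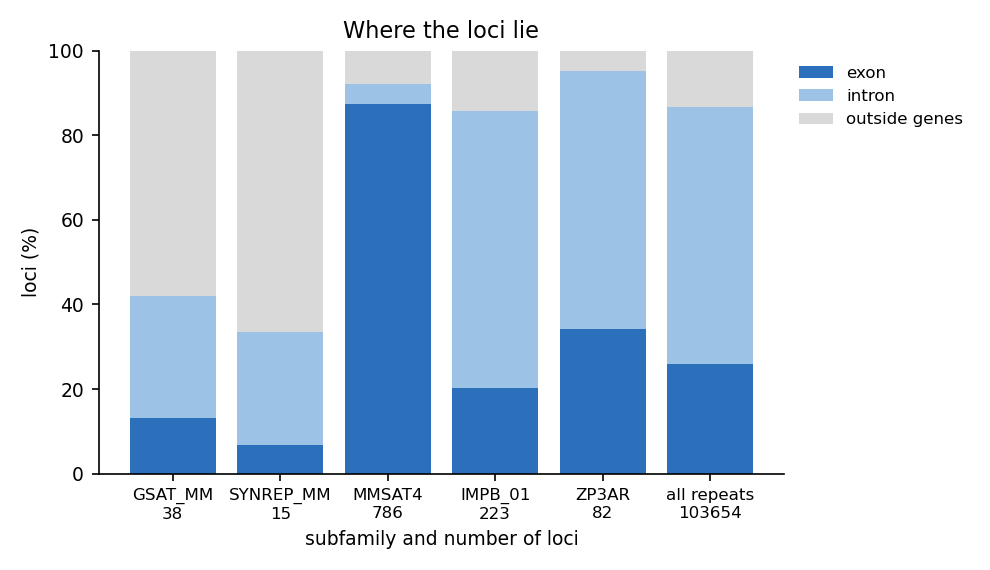
Share of loci (percent) that overlap an exon, lie in an intron or lie outside genes, for 5 satellite subfamilies and for all repeat loci that passed the same minimum. MMSAT4 is 87.3% exonic, while GSAT_MM and SYNREP_MM lie mostly outside genes (57.9% and 66.7%).

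Satellite members were mainly pieces of annotated exons. By the GENCODE vM21 annotation, 66.8% of them overlapped an exon, 21.8% lay in an intron and 11.4% outside genes, while of the 103654 repeat loci that passed the same minimum 25.8% were exonic, 13.3% outside genes and the rest intronic. MMSAT4 gave most of this, with 786 members of 1600 loci, 686 of them exonic and 570 in coding sequence. The 686 exonic MMSAT4 loci all lay on the strand of a gene, in 361 genes of which 213 have names starting with Zfp, the mouse prefix for zinc finger proteins. Up to 8 such loci lay in 1 gene. IMPB_01 had 223 members of 26753 loci, 65.5% intronic, and ZP3AR had 82 of 2575, 50 of them intronic. Of the centromeric repeats, 38 of 87 major satellite and 15 of 75 minor satellite loci were members. MurSAT1 (5741 loci, 5104 of them on chromosome Y) and SUBTEL_sa (31 loci) gave 1 member each, and CENSAT_MC (4 loci) and (CATTC)n (3 loci) gave 0. All 4 libraries were at 2 or above in 37 of the 38 GSAT_MM, 14 of 15 SYNREP_MM, 774 of 786 MMSAT4, 182 of 223 IMPB_01 and 63 of 82 ZP3AR members; the rest passed through some libraries alone.

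The file headers give totals of 62.6 and 62.9 M reads for the sgScramble and 73.0 and 71.9 M reads for the sgArid1a total RNA libraries, and 8.7 and 22.8 against 20.5 and 20.1 M reads for the polyA libraries of these genotypes. The table lists repeats only, so the Arid1a transcript in these libraries was not analysed here. In the untreated polyA libraries the log2 values of Arid1a were 10.90 and 11.08 for sgScramble and 10.43 and 10.39 for sgArid1a, a difference of -0.58 (SE 0.11, limma adjusted p = 0.00431). All 8 melanocyte markers (Pmel, Mlana, Tyr, Tyrp1, Dct, Mitf, Sox10 and Mc1r) were present in those libraries, with mean log2 values from 11.75 to 16.62, while Ptprc, Cd3e and Dcn were listed at 0. Of the 8, Tyr (-0.63), Mitf (-0.46) and Tyrp1 (-0.43) fell with sgArid1a (limma adjusted p = 0.000874, 0.00635 and 0.0492), and Col1a2 (-0.54) and Cd68 (-0.43) were lower too (adjusted p = 0.0189 and 0.012); their part in the gene results was not tested. The fibroblast genes Col1a2 and Pdgfra and the macrophage gene Cd68 were detected at low level (mean log2 up to 7.55). The sgScramble library of replicate 1 stood apart from the other 3 in its major and minor satellite values, and values without it are given beside the main results on both.

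The major satellite had the highest mean level of the satellite subfamilies and the widest spread between libraries. By summed signal it exceeded MMSAT4 in 3 of the 4 libraries and was 0.51 lower on the log2 scale in sgArid1a replicate 1 (major minus MMSAT4: -0.51). Its mean log2 value over 38 loci was 8.93 and 6.95 in the sgScramble libraries and 6.48 and 7.47 in the sgArid1a libraries. The sgScramble library of replicate 1 was the highest, and the other sgScramble library lay between the 2 sgArid1a libraries, so the groups overlapped. The sgArid1a mean was 0.97 lower on the log2 scale than the sgScramble mean (6.98 against 7.94; difference -0.97, SE 0.685, limma adjusted p = 0.763 over 840 repeat subfamilies). Without the sgScramble library of replicate 1 the difference was 0.02 (adjusted p = 0.993), without that of replicate 2 it was -1.96 (adjusted p = 0.314), and without sgArid1a replicate 1 or 2 it was -0.47 or -1.46 (adjusted p = 0.938 and 0.92). No repeat subfamily of any class passed the adjusted threshold (0 of 840, a percent called of 0), and 71 of 840 had an unadjusted p under 0.05 (8.45%), none of them a satellite. In bulk RNA, a change in the RNA per cell and a change in the share of cells that make it cannot be told apart.

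**Figure D2:**
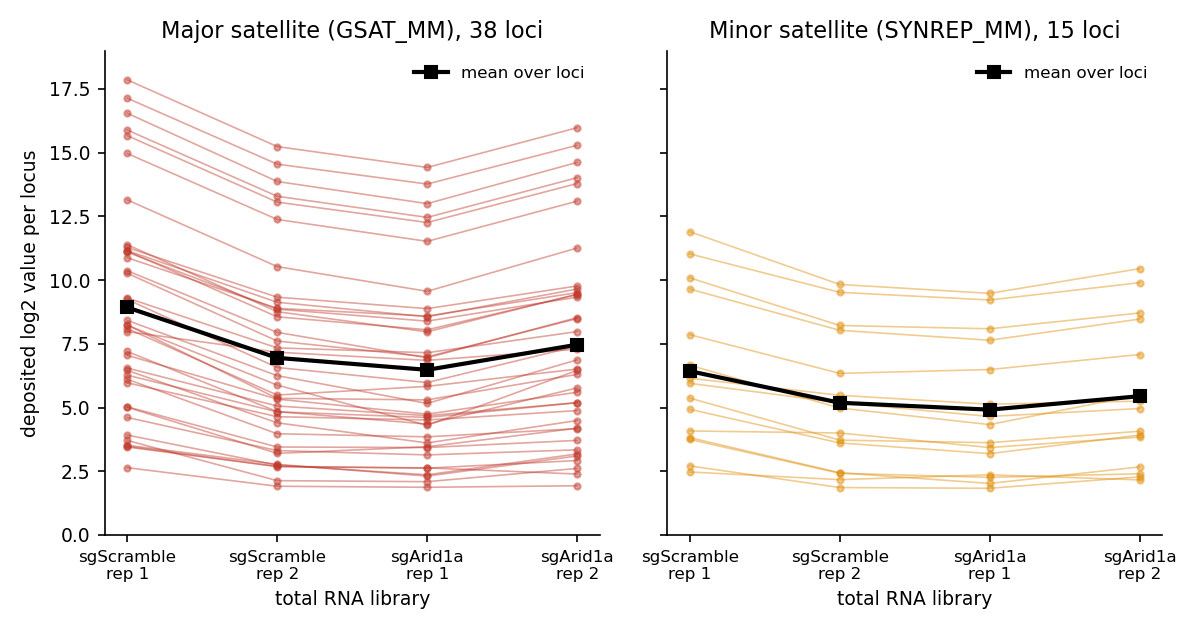
Deposited log2 value of each major satellite (left, 38 loci) and minor satellite locus (right, 15 loci) in the 4 total RNA libraries; thin lines join the values of 1 locus, and black squares are means over loci. All loci are highest in the first sgScramble library (mean 8.93 and 6.43), and 35 of 38 major and 13 of 15 minor satellite loci are lowest in the first sgArid1a library (mean 6.48 and 4.92).

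All 38 major satellite loci were highest in the sgScramble library of replicate 1, against 21.2% of all repeat loci. In 35 of 38 (92.1%) the 4 libraries had the same full order, sgScramble 1 above sgArid1a 2 above sgScramble 2 above sgArid1a 1, an order that 3.48% of all repeat loci had. As these loci share sequence and may share reads, they are not independent measurements of that order. Summed after undoing the log, the major satellite was 6.07-fold higher in sgScramble replicate 1 than in replicate 2, and 2.91-fold higher in sgArid1a replicate 2 than in replicate 1. The full range, from sgScramble 1 to sgArid1a 1, was 10.6-fold. The sum for MMSAT4 spanned 1.13-fold over the same libraries.

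The 4 loci with the highest mean overlapped exons of predicted genes. Lower loci lay in predicted genes as well, such as an intronic piece in Gm13822 with a mean of 5.68. The highest, in Gm10800 (chr2:98666545-98667332), had log2 values of 17.86 and 15.24 in the sgScramble libraries and 14.42 and 15.98 in the sgArid1a libraries. The next, the 38.42 kb array at the start of the assembled chromosome 9 (chr9:3000003-3038419), which holds Gm26870 and other predicted genes, had 17.14 and 14.55 against 13.77 and 15.29. The Gm10801 locus (chr2:98662235-98662500) had 16.55 and 13.87 against 14.62 in sgArid1a replicate 2 and less in replicate 1, and the Gm21738 locus (chr14:19415683-19419702) had 15.89 and 13.29 against 12.46 and 14.02. In each of the 4 the groups overlapped and the same order of libraries returned. Their differences were between -1.40 and -1.32, with unadjusted limma p from 0.00272 to 0.00302 and adjusted p from 0.234 to 0.245. The limma fit draws the error of a locus toward that of other loci of like level: with a robust variance estimate, chosen after seeing the data, the SE at Gm10800 was 1.44 in place of 0.412 (adjusted p = 0.914). Without the sgScramble library of replicate 1 the Gm10800 difference was -0.04 (adjusted p = 0.987). It was called with a minimum mean of 3 (adjusted p = 0.025) and when another library was left out, with differences of -2.65 without sgScramble replicate 2 and -0.57 and -2.13 without sgArid1a replicates 1 and 2, where the lone library left in a group is assumed to vary like the other group. The authors' deposited table gives the Gm10800 locus a log2 fold change of -1.86 with an unadjusted p of 0.166.

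The first 2 loci together held 58.5% to 58.7% of the summed major satellite signal in every library, while the sum itself moved 10.6-fold. Per kb of length, the highest loci were the short Gm10801 pieces on chromosome 2 (log2 value per kb 16.43 and 16.30), followed by Gm10800 (16.22). Loci closer to the consensus had higher levels. The 9 major satellite loci with under 10% divergence had a median mean of 13.70, the 29 others 5.54, and over the 38 loci the level per kb fell with divergence (Spearman's rho -0.87, Pearson's r -0.84; loci may share reads, and no p is given). The differences were also larger at higher levels, with a median of -1.34 for the 15 loci with a mean of at least 8, -0.81 for the 18 between 3 and 8, and -0.44 for the 5 under 3. Without the sgScramble library of replicate 1 these medians were -0.04, 0.05 and -0.01. How the deposited log2 values treat low levels is not given in the sources used here.

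The most negative difference was at a short piece in an intron of Mamdc2 (chr19:23357423-23357593), with 8.23 and 5.88 against 4.30 and 6.46 (difference -1.67, adjusted p = 0.151). Next were a second Gm10801 piece (chr2:98663642-98664091; 13.15 and 10.53 against 9.56 and 11.26) and in an intron of Ank1 (chr8:23095476-23095805; 10.37 and 7.95 against 6.95 and 8.53). Without the sgScramble library of replicate 1 the differences at Mamdc2, the second Gm10801 piece and Ank1 were -0.50, -0.13 and -0.21. With all libraries 0 of 38 major satellite loci had a higher sgArid1a mean, and without that library 16 did and 22 were lower, with a median of -0.02 (lowest -0.50, highest 0.68; no test). The 3 smallest differences, -0.28, -0.30 and -0.37, were all on chromosome X, at starts 75667409, 75670327 and 75671453, and without sgScramble replicate 1 they were 0.63, 0.09 and -0.01 (adjusted p from 0.472 to 0.997). There lay 11 major satellite members, 28.9% of all, within 28.2 kb, with 22.7% to 27.4% divergence, a median level of 3.91 and a highest level of 5.37, and 10 of the 11 had the same order of libraries as the other loci.

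The minor satellite moved with the major one, by less. Over 15 loci it averaged 6.43 and 5.19 in the sgScramble libraries and 4.92 and 5.44 in the sgArid1a libraries. The order of the libraries was the same as for the major satellite, and the groups overlapped. The difference of the means was -0.63 (SE 0.419, limma adjusted p = 0.745), it was -0.01 without the sgScramble library of replicate 1 (adjusted p = 0.993) and -1.25 without that of replicate 2 (adjusted p = 0.305). All 15 loci were highest in sgScramble replicate 1, and 9 (60.0%) had the full order of libraries seen for the major satellite. The summed signal was 3.42-fold higher in sgScramble replicate 1 than in replicate 2. The sum of the major satellite exceeded that of the minor by 6.28, 5.45, 4.94 and 5.69 on the log2 scale in sgScramble 1 and 2 and sgArid1a 1 and 2, so the gap was widest in the libraries with most signal.

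The highest minor satellite locus was the one that overlaps the Gm10801 major satellite piece (chr2:98662469-98662826), with 11.90 and 9.83 against 9.48 and 10.45. Next came chr2:98666205-98666525, outside genes, with 11.03 and 9.52 against 9.22 and 9.90, and chr6:103649048-103649294, in an intron of Chl1, with 10.09 and 8.22 against 8.09 and 8.71. The fourth was chr2:98664881-98665222, with 9.65 and 8.03 against 7.64 and 8.47. The groups overlapped at all 4, and without sgScramble replicate 1 their differences were 0.13, 0.04, 0.18 and 0.02. The host gene Chl1, a neural cell adhesion gene, had log2 values of -1.73 to -1.72 in the untreated polyA libraries and did not pass the minimum there. The most negative difference (-0.91) was at chr9:24542008-24542159, with 6.66 and 4.98 against 4.33 and 5.50, and it was -0.06 without sgScramble replicate 1. The smallest differences were in an intron of Cdh12 on chromosome 15 (2.47 and 2.17 against 2.36 and 2.16; -0.06), beside the chromosome X cluster (start 75667185; -0.23) and at chromosome X start 143483005 (-0.31); without sgScramble replicate 1 they were 0.09, 0.20 and 0.44. Over all 15 loci, 8 were then higher and 7 lower.

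Minor satellite loci included 4 of 15 whose groups did not overlap, all lower with sgArid1a (26.7%, against 16.3% of all repeat loci for the same pattern), and 0 higher (20.9% of all repeat loci). The chromosome Y locus chrY:4146246-4150813, outside genes, had 5.95 and 5.19 against 4.65 and 4.96 (difference -0.77, SE 0.231, adjusted p = 0.221). At chr11:107198401-107199546 the values were 3.75 and 2.42 against 2.26 and 2.40 (difference -0.76, adjusted p = 0.387). The others were in an intron of Cldn34d (chrX:76598566-76599127), with 6.15 and 5.48 against 5.13 and 5.25, and at chr4:28176800-28177215. The chromosome 4 locus had 4.08 and 4.0 against 3.43 and 3.84 (difference -0.41), with the sgScramble libraries close together. The Cldn34d and chromosome 4 loci were named after their values were seen. In all 4 the sgScramble library of replicate 1 was the highest. Without it the chromosome Y difference was -0.39 (adjusted p = 0.788) and the chromosome 11 difference -0.09 (adjusted p = 0.972), and without sgScramble replicate 2 they were -1.15 (adjusted p = 0.00486) and -1.42 (adjusted p = 5.74e-05). Of the major satellite loci, 1 of 38 was lower without overlap and 0 were higher.

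**Figure D3:**
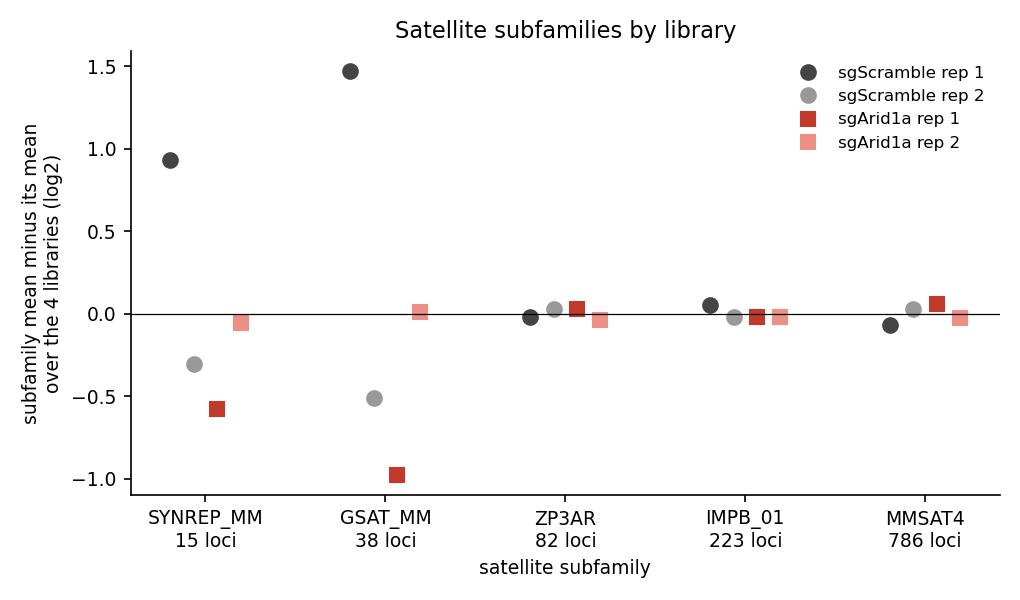
Mean log2 value of each satellite subfamily in each library, minus the mean over the 4 libraries; circles are sgScramble and squares sgArid1a libraries. GSAT_MM and SYNREP_MM spread over more than 1 unit with the groups interleaved, and the other 3 subfamilies stay near 0.

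**Figure D4:**
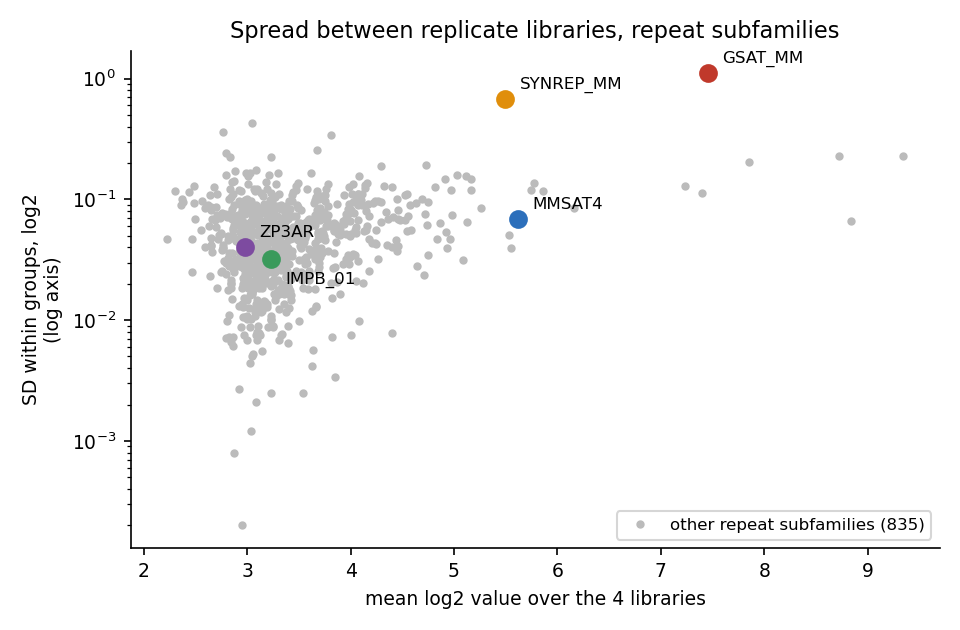
Standard deviation (SD) within groups (log2, log axis) against the mean log2 value for 840 repeat subfamilies; grey points are subfamilies of other classes. GSAT_MM (SD 1.11) and SYNREP_MM (SD 0.674) lie above every other subfamily.

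The spread between replicates of these 2 subfamilies was the largest of all 840. The SD within groups was 1.11 for GSAT_MM and 0.674 for SYNREP_MM, while MMSAT4, IMPB_01 and ZP3AR had 0.069, 0.032 and 0.040 and ranked 225, 555 and 456. The next in rank was the telomeric repeat (TTAGGG)n, a simple repeat with 23 loci and an SD of 0.426, whose means were 3.59 and 2.81 against 2.72 and 3.06. It was singled out after its values were seen. It had the same order of libraries as the major satellite, as did the simple repeat (CTGTG)n in rank 5 (4.29 and 3.63 against 3.55 and 3.76), while (GGGAA)n in rank 4 had 3.26 and 2.55 against 2.55 and 2.68. Other measures of the libraries moved less. Repeat loci outside genes other than satellites had means of 3.34, 3.34, 3.35 and 3.32 in the 4 libraries, intronic ones 2.86, 2.86, 2.89 and 2.90, and exonic ones 4.13, 4.19, 4.19 and 4.11. The 108 loci of the rRNA class averaged 8.70 and 8.66 for sgScramble and 9.17 and 8.73 for sgArid1a, highest in the library where the major satellite was lowest. Whether ribosomal RNA has a part in the satellite values was not tested.

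MMSAT4, the zinc finger satellite, did not differ detectably between the groups. Over 786 loci it averaged 5.55 and 5.65 for sgScramble and 5.68 and 5.59 for sgArid1a, with overlapping groups and a difference of 0.04 (SE 0.109, limma adjusted p = 0.942). Of its loci, 181 (23.0%) were higher with sgArid1a in both libraries and 105 (13.4%) lower, close to the 20.9% and 16.3% of all repeat loci. The median difference was 0.03, against 0.02 over all loci. By limma adjusted p, 0 of 786 MMSAT4 loci were called, against 0.369% of all repeat loci, and 38 (4.83%) had an unadjusted p under 0.05, against 7.95% of all repeat loci; by the authors' deposited adjusted p the count was 0 as well. The order of libraries seen for the major satellite was present in 1.65% of MMSAT4 loci.

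Among MMSAT4 loci the highest was in Zfp386 (chr12:116059790-116060659, coding sequence and UTR), with 10.62 and 10.83 against 10.98 and 10.86. The groups did not overlap, and the difference of 0.20 was not called (SE 0.157, adjusted p = 0.821). In the polyA libraries Zfp386 itself had 10.30 and 9.85 against 9.97 and 10.35. The most positive difference was in Zfp90 (chr8:106424458-106424582), with 3.33 and 4.05 against 4.38 and 4.39 (difference 0.69, SE 0.229, adjusted p = 0.307), and the gene had 6.94 and 6.83 against 7.14 and 7.23 (adjusted p = 0.124). The most negative difference was in Zfp979 (chr4:147612629-147613652), with 6.94 and 7.17 against 6.37 and 6.30 (difference -0.72, SE 0.196, adjusted p = 0.136), while the gene, with 6.68 and 6.37 against 6.24 and 6.85, overlapped between groups.

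MMSAT4 members sat on chromosomes with large zinc finger gene clusters, with 163 on chromosome 7, 129 on chromosome 13, 110 on chromosome 2 and 83 on chromosome 17. The median difference per chromosome for these was -0.02, 0.09, 0.07 and 0.05. On chromosome 13, 40 of 129 loci were higher and 14 lower without overlap, and on chromosome 4, 2 of 34 were higher and 11 lower; that is 31.0% and 10.9%, and 5.88% and 32.4%, against 20.9% and 16.3% of all repeat loci. Both chromosomes were picked after their values were seen, and neighbouring loci in a cluster share genes and similar sequence.

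The polyA libraries measured 249 genes with MMSAT4 exonic loci at a mean log2 of at least 4. Of these, 4 rose and 3 fell with sgArid1a (limma adjusted p under 0.05), which is 2.81%, against 11.8% of 11604 genes (5.84% higher and 5.98% lower). Genes with names starting with Zfp were also called less often than all genes, at 5.04% (17 of 337, 5 higher and 12 lower). The 337 include 190 of the MMSAT4 exon hosts. Among the 249, the genes called lower were Zfp810 (-0.60), Zkscan8 (-0.55) and Zfp760 (-0.41), and those called higher were Zfp9 (0.50), Zfp52 (0.46), 6720489N17Rik (0.46) and Zfp239 (0.38). These 7 fall outside the rule for named genes and were named because they are so few. Their satellite loci in total RNA differed by -0.22, 0.22, -0.09, 0.04, -0.29, 0.41 and 0.20 in the same order, none called. Across the 249 genes the differences of the satellite loci and of the gene were nearly unrelated (Pearson's r 0.04, Spearman's rho 0.06; different libraries, and genes are not independent replicates), and 56.2% had the same sign.

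**Figure D5:**
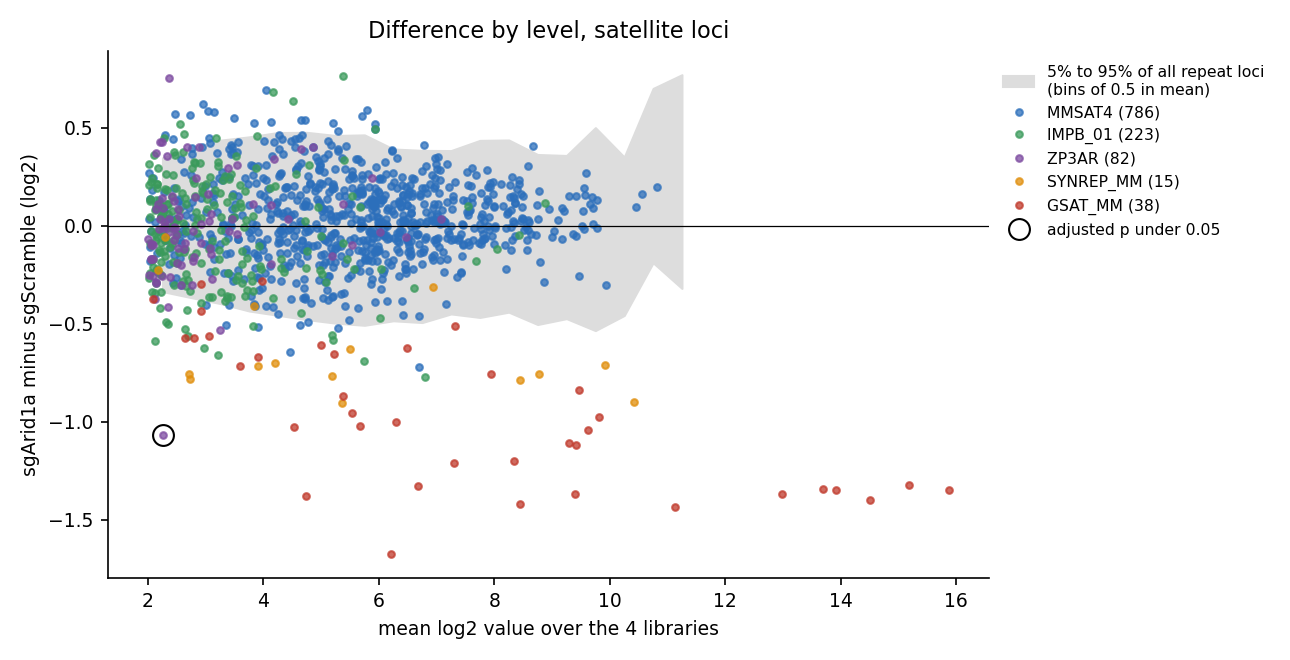
Difference of each satellite locus (sgArid1a minus sgScramble, log2) against its mean log2 value, coloured by subfamily, with the range holding 5% to 95% of all repeat loci in grey and the 1 called locus circled. GSAT_MM loci reach -1.67, with a median of -0.44 under a mean of 3 and -1.34 at 8 or more. They range from -1.67 to -0.28 at means of 3 to 8 and from -1.43 to -0.84 at 8 or more. MMSAT4 loci stay between -0.72 and 0.69.

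At the level of single loci, 1 of 1146 satellite members was called, and it was lower with sgArid1a. Over all repeat loci 383 of 103654 were called (0.369%), 111 higher (0.107%) and 272 lower (0.262%). The called locus was a ZP3AR piece in an exon and UTR of Nwd1 (chr8:72713900-72713996), with 2.81 and 2.77 in the sgScramble libraries and 1.74 and 1.71 in the sgArid1a libraries. The groups did not overlap, with a difference of -1.07 (SE 0.187, limma adjusted p = 0.00314). It was a member only through the sgScramble libraries, being below 2 in both sgArid1a libraries, and with no minimum on the level its adjusted p was 0.679 (range over its alternatives 0.000319 to 0.679). The authors' deposited table gives it a log2 fold change of -6.24 with an unadjusted p of 0.000217. By the authors' adjusted p, 0 of 1146 members were under 0.05 (smallest 0.277), against 125 of 103654 loci (0.121%). By their unadjusted p, 17 members were under 0.05. The share of all loci at that threshold was not computed, so this count has no background to be read against. Nwd1, which encodes a NACHT and WD repeat protein, had 5.55 and 5.32 against 5.36 and 5.24 in the polyA libraries (difference -0.13, adjusted p = 0.476).

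The count of called satellite loci rested on single libraries. It was 50 without sgScramble replicate 2, 34 of them GSAT_MM and 12 SYNREP_MM, where 0.621% of all repeat loci were called. It was 35 without sgArid1a replicate 2 (0.393% of all loci), 10 without sgArid1a replicate 1 (0.373%) and 1 without sgScramble replicate 1 (0.38%). With a minimum mean of 3 it was 24 of 897 (1.42% of all 44869 loci tested), 21 of them GSAT_MM loci, all with overlapping groups. Unadjusted p was under 0.05 at 110 members (9.60%, against 7.95% of all repeat loci), and 31 of the 38 major satellite and 11 of the 15 minor satellite loci were among them. Of the other satellite members, 68 of 1093 (6.22%) were. Major and minor satellite loci may share reads, and the fit draws their error toward that of other loci of like level. These counts are therefore not counts of independent results. With a robust variance estimate, chosen after seeing the data, 70 members had an unadjusted limma p under 0.05, beside 8557 of all 103654 loci.

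IMPB_01 and ZP3AR stayed level as subfamilies. IMPB_01 had means of 3.28 and 3.21 against 3.21 and 3.21 (difference -0.03, SE 0.036, limma adjusted p = 0.857), and ZP3AR had 2.96 and 3.01 against 3.01 and 2.94 (difference -0.01, SE 0.0394, adjusted p = 0.946). The highest IMPB_01 locus, in a UTR of the casein kinase gene Csnk1e (chr15:79418500-79418589), had 8.87 and 8.76 against 9.04 and 8.81. The highest ZP3AR locus, in a UTR of the polyadenylation factor gene Cpsf2 (chr12:102003368-102003415), had 6.92 and 7.20 against 7.31 and 6.88. The groups overlapped at both loci. The single MurSAT1 member, on chromosome Y, had 3.10 and 2.96 against 3.17 and 3.14, and the single SUBTEL_sa member, in an intron of Cnot2, had values between 2.14 and 2.68 with overlapping groups.

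Exonic IMPB_01 loci leaned lower. Of 45, 18 were lower without overlap (40.0%) and 7 higher (15.6%), with a median difference of -0.21. Exonic repeat loci other than satellites had 20.1% lower, 18.4% higher and a median of -0.01. The exonic subset was not planned as a test. Over all 223 IMPB_01 loci 49 were lower (22.0%) and 44 higher (19.7%), against 16.3% and 20.9% of all repeat loci. The 146 intronic IMPB_01 loci had a median difference of 0.0. Of the 45, 0 were called, and 8 (17.8%) had an unadjusted p under 0.05, against 8.89% of the exonic loci other than satellites. The most negative difference among them was in a UTR of the p53 target Zmat3 (chr3:32340389-32340569), with 7.20 and 7.17 against 6.42 and 6.41 (difference -0.77, SE 0.192, adjusted p = 0.0812). Zmat3 itself fell in the polyA libraries, from 10.39 and 10.38 to 10.07 and 10.06 (difference -0.32, SE 0.0864, limma adjusted p = 0.0319). Of 41 measured genes with an exonic IMPB_01 locus, 7 fell and 0 rose (17.1%, against 5.98% of genes lower). The others were the mTOR inhibitor gene Deptor (-1.31), Glis3 (-0.85), Mecom (-0.60), Zfp827 (-0.49), Taok3 (-0.41) and the vesicle fusion gene Vamp2 (-0.38), named because they are so few. Their IMPB_01 loci differed by -0.22, -0.66, -0.37, -0.56, -0.47 and 0.38. With introns included, 166 genes with an IMPB_01 locus were measured, of which 8 rose (4.82%) and 22 fell (13.3%), against 5.84% and 5.98% of all genes. Across the 41 genes the differences of locus and gene had a Pearson's r of 0.35 and a Spearman's rho of 0.40, with the same sign in 56.1%.

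The most positive differences were at loci in introns and exons of expressed genes, none called. An IMPB_01 locus in an intron of Spg20 (chr3:55114256-55114479) had 5.00 and 4.99 against 6.08 and 5.43 (difference 0.76, SE 0.22, adjusted p = 0.184). A ZP3AR locus in an intron of Clip2, which encodes a microtubule-binding protein (chr5:134500443-134500762), had 2.10 and 1.88 against 2.63 and 2.86 (difference 0.75, adjusted p = 0.117). Its sgScramble mean was 1.99, below the minimum, so the Clip2 locus was a member only through the sgArid1a libraries, where it was high. An IMPB_01 locus in a UTR of the xylosyltransferase gene Xylt1 (chr7:117670559-117670644) had 4.10 and 4.29 against 4.75 and 4.92 (difference 0.64, adjusted p = 0.305). An IMPB_01 locus in an intron of Synpo, an actin-associated protein gene, had 3.78 and 3.87 against 4.50 and 4.50 (difference 0.68, adjusted p = 0.234). The groups did not overlap at these loci, which with the Zfp90 locus are the 5 most positive differences without overlap. Their genes had polyA differences of 0.09 (Spg20), 0.28 (Clip2), -0.15 (Xylt1) and 0.42 (Synpo), with adjusted p of 0.523, 0.252, 0.529 and 0.0546. Over all 1146 satellite members, 241 were higher and 175 (15.3%) lower without overlap, against 20.9% and 16.3% of all repeat loci.

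A list of genes for satellite chromatin and the centromere was read in the untreated polyA libraries. It holds genes that silence satellite chromatin or build the centromere, and also the histone demethylase genes Kdm4a, Kdm4b and Kdm4c. Counts of risen and fallen genes on it therefore give no direction of silencing. Of 57 measured genes of 62 names listed, 1 rose and 3 fell (7.02%, against 11.8% of all genes), with a median difference of 0.07 against 0.01 for all genes. Uhrf1, which brings the maintenance DNA methyltransferase to replicated DNA, rose from 11.78 and 11.94 to 12.51 and 12.44 (difference 0.61, SE 0.0934, limma adjusted p = 0.00104). Kdm4a, a demethylase of histone H3 lysine 9 and 36, fell from 10.40 and 10.46 to 9.67 and 9.59 (difference -0.80, SE 0.097, limma adjusted p = 0.000186). Mecom, whose protein PRDM3 is a histone H3 lysine 9 methyltransferase, fell from 7.23 and 7.04 to 6.57 and 6.51 (difference -0.60, SE 0.115, adjusted p = 0.00477). H3f3b, one of the histone H3.3 genes, fell from 13.15 and 12.95 to 12.48 and 12.66 (difference -0.48, SE 0.103, adjusted p = 0.00943). The groups did not overlap for any of the 4 genes. H3f3b had an adjusted p of 0.132 without sgArid1a replicate 1, Mecom 0.0574 without sgArid1a replicate 2, and without sgScramble replicate 2, which leaves only the shallowest polyA library on that side, 15 of the list were called (26.3%, against 24.5% of all genes). The remaining 53 measured genes were not called, and 17 of the 57 (29.8%) had an unadjusted p under 0.05, against 25.9% of all genes. These are other libraries than those in which the satellites were measured.

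All genes that hold a satellite member in an exon or intron numbered 685, of which 533 were in the polyA table and 491 passed the minimum. Of these, 14 rose and 29 fell with sgArid1a (8.76%, against 11.8% of all genes), with a median difference of 0.01. The count was 102 without sgScramble replicate 2 (20.8%, against 24.5% of all genes), 20 without sgArid1a replicate 1 (4.07%, against 4.36%) and 16 without sgArid1a replicate 2 (3.26%, against 3.89%). With the replicate number as a block it was 20 (4.07%, against 5.83%), and with only the sgScramble and sgArid1a libraries 19 (3.85%, against 5.53%). The predicted genes Gm10800, Gm10801, Gm21738 and Gm26870, which hold the highest major satellite loci, were not matched by symbol in the polyA table and are not analysed there. Mamdc2 had 5.58 and 5.62 against 5.30 and 5.34 (difference -0.28, adjusted p = 0.0792), Ank1 was at a log2 of 1.76 to 1.85, and Cdh12 was listed at 0.

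At the edge of the rule, the 3 members with the lowest means (2.01 each) were ZP3AR loci in exons of Castor2 and Polr2j and an MMSAT4 locus in an intron of Zfp11. The Castor2 locus had 1.75 and 2.33 against 2.00 and 1.95, the Zfp11 locus 1.95 and 2.04 against 1.74 and 2.32, and the Polr2j locus 1.60 and 2.67 against 1.91 and 1.86. The 3 loci just below the minimum lay in a UTR of Bcl2l11, in Gm2004 and in an intron of Zfp217, with values between 1.69 and 2.40.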

How the data were processed

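B16F10 cells were profiled as total RNA (2 sgScramble and 2 sgArid1a libraries) and as untreated polyA RNA. The labels name a stranded mRNA kit for both, and whether total RNA was poly(A) selected is not given in the sources used here. STAR 2.5.3a, HOMER, edgeR, DESeq2 and GRCm38 (mm10) are named in the submitters' processing notes. Per the file headers, the repeat table was made by counting each repeat locus separately with HOMER, and the deposited values are normalized log2 values per locus with a log2 fold change, p-value and adjusted p-value of the authors; the polyA tables hold deposited log2 values per gene. No strand option stands in the header. Exonic loci had signal on both strands: SINE loci a median of 3.74 on the strand of the gene (5705 loci) and 3.47 on the other (4834), LINE 3.97 and 3.58, LTR 4.13 and 3.67, and satellites 5.86 (638) and 3.56 (40). Whether counting used strand is not given, so sense and antisense reads are taken as not told apart. Read counts per locus were not used here, so no counting intervals are given. The log2 transformation is not stated in the headers, and it may shrink differences of low loci.

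Loci were tested with limma 3.58.1 (trend, R 4.3.3) over all 103654 loci with a mean of at least 2, and subfamilies as means over loci (at least 5), with Benjamini-Hochberg adjustment and a threshold of 0.05. With 2 against 2 libraries an exact permutation test cannot go below p = 0.333. Genes with a mean of at least 4 were fitted over 8 untreated polyA libraries in 4 groups. The fits were tested on simulated data with planted changes. At single loci 17.9% of planted log2 changes of 0.5 and 97% of those of 1 were recovered, with 17 false calls over 103654 loci. For subfamilies 98.5% of changes of 0.5 were recovered, with 10 false calls over 840, and for genes 90%, with 16 over 11604. The simulated spread followed the smoothed trend with level, so the wide spreads of GSAT_MM and SYNREP_MM were not simulated. Positions are from GENCODE vM21 with bedtools 2.31.1, promoters from RefSeq. SYNREP_MM is the name in the repeat annotation and was read here as the minor satellite. Its sequence was not searched for the site that CENP-B binds. Members, lists and tests were chosen with earlier results of these data known. Named were the 4 highest major and minor satellite loci with their 3 largest rises and falls, the highest locus of each other subfamily, the 5 largest rises and falls without overlap, called loci, the 3 loci on each side of the minimum, host genes of these, and up to 4 called genes of the list in each direction. Alternatives were the minimum, scaling, variance model, summary over loci, exonic loci left out, the replicate block and each library left out.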

Additional observations from a re-analysis of the deposited data

How the results depend on the processing

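Major and minor satellite differences (-0.97 and -0.63) were not called under any of the 14 alternatives run for each. Leaving out 1 library moved the major satellite difference between -1.96 and 0.02 and the minor between -1.25 and -0.01; the change of sign of the major satellite, to 0.02, came without sgScramble replicate 1. No satellite subfamily was called under any alternative. The count of called satellite loci (1, with 0.369% of all loci) was 24 with a minimum mean of 3 (1.42%), 0 with no minimum, 0 by the authors' adjusted p, 3 with a robust variance estimate, chosen after seeing the data, 2 with the replicate block, and 1 to 50 with 1 library left out. Of all loci, 0.569% were called with the robust variance estimate and 0.314% with the replicate block. The cause of the moves in the count of called satellite loci was not tested. Called genes of the silencing and centromere list (4) ranged from 3 to 15 with 1 library left out. Called host genes (43) were 19 with only the sgScramble and sgArid1a libraries, 20 with the replicate block, and 16 to 102 with 1 library left out, where all genes were called at 5.53%, 5.83% and 3.89% to 24.5%. Replicate numbers did not pair the libraries (correlation of same-numbered deviations -0.05 over all loci, -0.53 over satellite members), and with the replicate block the major and minor satellite differences stayed -0.97 and -0.63 (adjusted p = 0.906 for each). The deposited log2 values carry no read counts per locus, so counting error could not be set apart.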
